A study of Mus musculus with 6 samples.

Results

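The genes described are 37 enzymes of xenobiotic metabolism and antioxidant defence, measured in mouse colon 24 h after ethanol was injected into the rectum. They were taken from a list of gene names in 4 roles: 10 cytochrome P450 enzymes, 8 other phase I enzymes, 12 phase II enzymes and 7 antioxidant enzymes. All 37 genes had a probe set, among the 18193 genes that the array names, and they had 61 probe sets in all. For each gene the probe set with the highest mean over the 6 arrays was used, and its signal was compared on the scale log2(signal + 18).

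The 6 arrays came from 3 groups of C57BL/6 mice aged 6-8 weeks, with 2 arrays in each, namely wild type (WT) mice, GPR41 KO mice and GPR43 KO mice. GPR41 and GPR43, encoded by Ffar3 and Ffar2, are receptors for short-chain fatty acids, and the series asks how the colon responds without them. All 3 groups had received the ethanol, so ethanol itself had no untreated control, and the arrays show how the genotypes differed after it. The labels do not name how the knockouts were made, whether controls were littermates, or whether a sample was 1 animal or several. The p-values therefore measure the spread between these samples, with 2 per group. Where 1 array is left out below, its group is a single array, and the fit takes its spread from the remaining groups.

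The label check came first. Ffar2 had a signal of 1194 and 1118 in WT, against 1857 and 1933 in GPR41 KO, with 1598 in the library labelled GPR43 KO replicate 1 but 189 in GPR43 KO replicate 2. Its other probe set gave 1142 and 76.3 in the same pair of GPR43 KO arrays, against 840 and 757 in WT. Ffar2 was thus low in only 1 of the 2 arrays labelled GPR43 KO, so calls in GPR43 KO are also given without the library labelled GPR43 KO replicate 1. No probe set named Ffar3, so the GPR41 KO labels were not checked. The defining markers of colon epithelium were all present, with a lowest signal of 3481 for any of 12 genes on any array. The first principal component carried 59.6% of the variance and set both WT arrays (-24.6 and -44.1) apart from the 4 KO arrays (11.2 to 20.1).

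Foreign and oxidised compounds are handled in steps. Phase I enzymes, among them the cytochromes P450, flavin monooxygenases, carboxylesterases and epoxide hydrolases, add or uncover a reactive group, and phase II enzymes join that group to glutathione or sulfate so that it can be carried out of the cell. Antioxidant enzymes remove peroxides, make glutathione or reduce quinones. Many of these genes are induced through the receptors AhR, PXR and CAR or through the transcription factor NRF2, which binds the antioxidant response element. In the gut the enzymes are found mainly in the epithelium, whereas haem oxygenase 1 (Hmox1) is also made by myeloid cells.

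The stretches directly upstream of 6 of the genes are shown because the first 5 genes rose together in GPR41 KO while Cyp4b1 fell. They are the 250 bases before the first listed transcription start, from RefSeq on GRCm38.p6, and were searched on both strands for TGACNNNGC, the core of the antioxidant response element, and GCGTG, the core of the xenobiotic response element bound by AhR. Capitals mark a match, of which these 6 stretches held 1, and the strand given is that of the gene. Cyp2s1 also rose in GPR41 KO, and its stretch, which held no match, is not printed. The stretch of Cyp2c55 ends inside the gene as placed below, from 39006940, since the start used lies further in.
Gstm1 (chr3:108017974-108018223, minus strand): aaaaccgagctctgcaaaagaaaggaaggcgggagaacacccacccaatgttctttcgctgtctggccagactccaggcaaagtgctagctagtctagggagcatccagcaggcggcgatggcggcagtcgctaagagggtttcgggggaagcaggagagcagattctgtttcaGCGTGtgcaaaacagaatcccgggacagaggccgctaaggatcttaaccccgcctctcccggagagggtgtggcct
Gstm3 (chr3:107969175-107969424, minus strand): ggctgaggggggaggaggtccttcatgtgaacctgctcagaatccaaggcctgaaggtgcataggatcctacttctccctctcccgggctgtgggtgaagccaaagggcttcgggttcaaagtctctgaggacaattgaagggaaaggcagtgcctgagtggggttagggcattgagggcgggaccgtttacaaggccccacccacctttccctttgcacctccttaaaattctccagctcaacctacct
Nqo1 (chr8:107403206-107403455, minus strand): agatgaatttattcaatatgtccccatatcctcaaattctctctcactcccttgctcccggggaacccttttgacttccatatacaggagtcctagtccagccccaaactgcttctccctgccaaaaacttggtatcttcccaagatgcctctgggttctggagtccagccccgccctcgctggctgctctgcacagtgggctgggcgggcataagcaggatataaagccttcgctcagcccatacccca
Cyp2c55 (chr19:39006769-39007018, plus strand): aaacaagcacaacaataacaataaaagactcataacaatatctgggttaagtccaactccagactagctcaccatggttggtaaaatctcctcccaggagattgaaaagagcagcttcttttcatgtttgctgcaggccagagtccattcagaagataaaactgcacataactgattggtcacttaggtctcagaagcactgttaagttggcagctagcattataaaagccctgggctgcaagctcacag
Cyp2c65 (chr19:39060756-39061005, plus strand): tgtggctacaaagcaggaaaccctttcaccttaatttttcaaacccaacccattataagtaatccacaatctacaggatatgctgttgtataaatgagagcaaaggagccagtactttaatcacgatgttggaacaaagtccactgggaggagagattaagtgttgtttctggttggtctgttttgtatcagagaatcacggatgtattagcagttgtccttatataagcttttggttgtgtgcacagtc
Cyp4b1 (chr4:115647722-115647971, minus strand): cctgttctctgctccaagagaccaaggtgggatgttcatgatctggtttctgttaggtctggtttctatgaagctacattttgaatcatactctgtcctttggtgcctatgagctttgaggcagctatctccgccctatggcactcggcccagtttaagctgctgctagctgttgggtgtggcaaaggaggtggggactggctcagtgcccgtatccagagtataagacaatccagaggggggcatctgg

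Across the 31 member genes with such a stretch, 3 held TGACNNNGC in at least 1 of their listed starts, and 10 held GCGTG. Counted by stretch, since some genes have several starts, 3 of the 37 member stretches (8.11%) held TGACNNNGC, against 10.2% of all 32851 stretches of that length. GCGTG was in 13 of the 37 (35.1%), against 28.2%. The 2 motifs overlapped in none of the members. The 3 genes with TGACNNNGC are shown because none of them passed the test in any comparison: Gclm and Txnrd1, both textbook NRF2 targets, and Mgst1. Each match lay on the strand opposite to the gene, so the capitals read as the reverse complement of the motif.
Gclm (chr3:122245411-122245443, plus strand): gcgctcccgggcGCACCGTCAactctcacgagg
Mgst1 (chr6:138140459-138140491, plus strand): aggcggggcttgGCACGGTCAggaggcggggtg
Txnrd1, second listed start (chr10:82859102-82859134, plus strand): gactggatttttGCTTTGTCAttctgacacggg
A match is only a run of letters, and the absence of one in Gstm3, Nqo1 or the Cyp2c genes says only that these letters are not in the 250 bases. Fmo1, Ces1d, Ephx2, Gsta4, Hmox1 and Gclc had no entry among the sequences.

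Of the 37 genes, 34 were above the filter on low signals and were tested, by limma over all 10916 genes above it, with a threshold of 0.05 on the adjusted p. In GPR41 KO, 6 genes rose and 2 fell against WT, which is 23.5% of those tested. Of all genes tested, 4.96% passed in that comparison, with 1.85% higher and 3.11% lower. In GPR43 KO, 7 rose and 2 fell, or 26.5%, where 3.96% of all genes passed, with 1.55% higher and 2.41% lower. With the 4 KO arrays set against WT in one contrast, 9 rose and 2 fell, or 32.4%, where 6.99% of all genes passed, with 3.2% higher and 3.79% lower. The median log2 fold change of the 34 genes was 0.17 in GPR41 KO and 0.16 in GPR43 KO, against 0.00057 and 0.030 over all genes tested. The genes and their roles were chosen with earlier results of these data known. The shares and medians, here and by role below, therefore describe the list and are not a test of it.

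The same 7 genes passed in both knockouts, each in the same direction: Cyp2c55, Cyp2s1, Gstm1, Gstm3 and Nqo1 rose, and Cyp4b1 and Hmox1 fell. All 7 also passed with the 4 KO arrays combined, as did Cyp2c65, which passed in GPR41 KO but not in GPR43 KO, Mgst2 and Sult1c2, which passed in GPR43 KO but not in GPR41 KO, and Cyp2f2, which passed in neither. For none of these last 4 did the difference between the knockouts itself pass. Both comparisons use the same 2 WT arrays, so they are not independent of each other. The counts depended on single arrays. Without GPR41 KO replicate 1 the number in GPR41 KO was 1, and without GPR41 KO replicate 2 it was 4. Without the library labelled GPR43 KO replicate 1 the number in GPR43 KO was 5, of which 4 were among the 9, and without GPR43 KO replicate 2 it was 3. The 4 that stayed without that library were Gstm3 (1.74, adjusted p = 0.0046), Gstm1 (1.13, 0.0157), Cyp4b1 (-1.29, 0.0081) and Hmox1 (-3.81, 0.0026), and the median of the 34 genes was then 0.30. Without GPR41 KO replicate 1, 7 genes passed with the KO arrays combined. Of the 11 calls in that contrast 7 held whichever array was left out. The call of Gstm3 held in both comparisons whichever of the 6 arrays was left out, and those of Cyp4b1 and Hmox1 did so in GPR43 KO.

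**Figure D1:**
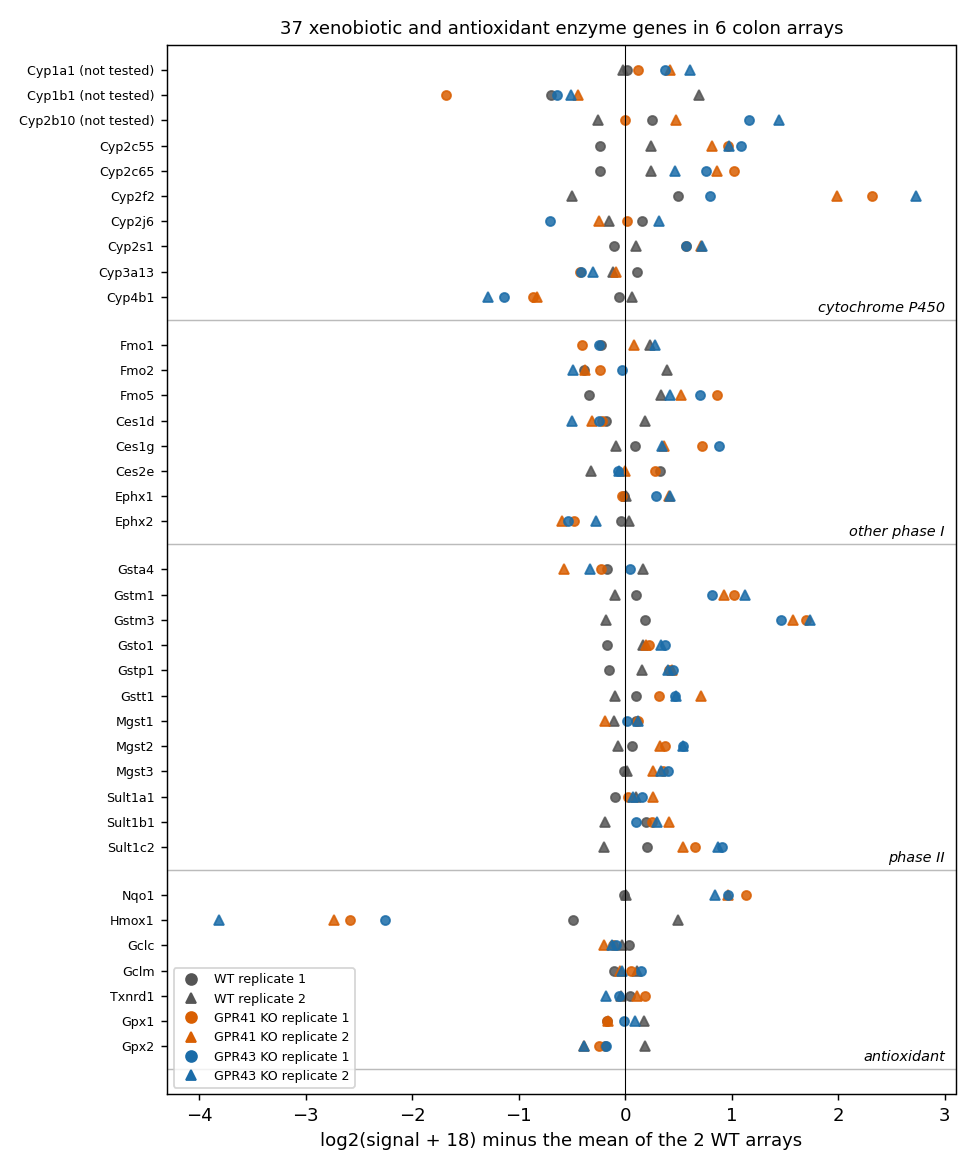
Each row is 1 of the 37 genes, grouped by role, and each point is 1 array, on the x axis as log2(signal + 18) minus the mean of the 2 WT arrays. Most points lie close to 0, whereas the lowest of the 4 KO arrays is at 1.46 for Gstm3 and the highest at -2.26 for Hmox1.

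The cytochrome P450 genes held 7 tested members, of which 3 rose and 1 fell in GPR41 KO (57.1%), and 2 rose and 1 fell in GPR43 KO (42.9%). Of all genes tested, 4.96% and 3.96% passed. Cyp2c55 and Cyp2c65 encode neighbouring P450s of the Cyp2c family, which oxidise fatty acids and drugs, and lie 18.3 kb apart on chromosome 19. Cyp2c55, at 39006940 to 39042690, gave a signal of 22490 and 31459 in WT, 51888 and 46618 in GPR41 KO, and 56443 and 52254 in GPR43 KO. All 4 KO arrays were above both WT arrays. Its log2 fold change came to 0.89 ± 0.18 (SE) in GPR41 KO (adjusted p = 0.0250), against 1.03 ± 0.18 in GPR43 KO (adjusted p = 0.0163). The call in GPR41 KO was lost without GPR41 KO replicate 1 or 2 (adjusted p = 0.193 and 0.112) and narrowly without GPR43 KO replicate 1 or 2 (0.0504 and 0.0512). That in GPR43 KO was lost without the library labelled GPR43 KO replicate 1 (0.106) or without replicate 2 (0.105).

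Cyp2c65, at 39061006 to 39093948, had signals of 4359 and 6068 in WT, 10474 and 9347 in GPR41 KO, and 8726 and 7135 in GPR43 KO. Again the KO arrays did not overlap WT, and the GPR43 KO pair lay between WT and GPR41 KO. The rise in GPR41 KO was 0.94 ± 0.18 (adjusted p = 0.0183), lost without GPR41 KO replicate 1 (0.136) or 2 (0.0735). In GPR43 KO the log2 fold change came to 0.62 ± 0.18 (adjusted p = 0.0960), which passed only without WT replicate 2 (0.0264). The probe set of Cyp2c65 carries the array maker's mark for probes shared by more than one transcript, so related Cyp2c transcripts could add to it. Cyp2c68, the other tested gene of the family, picked after its values were seen, had log2 fold changes of 1.32 (adjusted p = 0.0748) and 1.36 (adjusted p = 0.0726). With the 4 KO arrays combined it passed at 1.34 (adjusted p = 0.0346), which was lost without WT replicate 2 (0.182) or either GPR41 KO replicate (0.0909 and 0.0776).

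Cyp2s1, a P450 of epithelia at the body surface that lies at chr7:25802469-25816525, was 1.56 times as high in each knockout. Its signals were 2434 and 2816 in WT, 3900 and 4281 in GPR41 KO, and 3884 and 4314 in GPR43 KO, with no overlap. The log2 fold changes were 0.64 ± 0.13 in both, with adjusted p = 0.0264 for GPR41 KO and 0.0307 for GPR43 KO. The call in GPR41 KO was lost without WT replicate 1 (0.0584) or either GPR41 KO replicate (0.10 and 0.158). In GPR43 KO it was kept only when WT replicate 2 was the array left out. Without WT replicate 1, either GPR41 KO replicate, or the library labelled GPR43 KO replicate 1, or GPR43 KO replicate 2, the adjusted p was 0.0624, 0.0557, 0.0547, 0.0845 and 0.201.

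Cyp4b1 was the P450 that fell. It encodes an enzyme that oxidises fatty acids and some protoxins, at chr4:115624698-115647721. WT arrays gave 2670 and 2910, GPR41 KO 1524 and 1561, and GPR43 KO 1253 and 1130, so that the 3 groups were in order and did not overlap. The log2 fold change came to -0.85 ± 0.13 in GPR41 KO (adjusted p = 0.0066), lost without GPR41 KO replicate 1 (0.0580), and -1.22 ± 0.13 in GPR43 KO (adjusted p = 0.0017). The log2 difference of GPR43 KO from GPR41 KO was -0.37 ± 0.13, which did not pass (adjusted p = 0.870).

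Cyp2f2, which activates naphthalene and is abundant in airway club cells, had a low and uneven signal. It was 150.4 and 66.6 in WT, against 576 and 454 in GPR41 KO, with 189 in the library labelled GPR43 KO replicate 1 but 773 in GPR43 KO replicate 2. The log2 fold changes of 2.15 ± 0.56 and 1.76 ± 0.56 did not pass in GPR41 KO (adjusted p = 0.0699) or GPR43 KO (adjusted p = 0.131), whereas the 4 KO arrays together passed at 1.95 ± 0.49 (adjusted p = 0.0482). That call was lost without WT replicate 2 (0.225) or either GPR41 KO replicate (0.122 and 0.0954). The WT mean lay below the filter on low signals, so the gene was tested only because the KO arrays were high, and its call is not independent of that. With only GPR43 KO replicate 2 in its group, the array at 773, the change in GPR43 KO was 2.73 (adjusted p = 0.0161), but leaving out the lower array also takes its spread out of the fit. Without WT replicate 1 or either GPR43 KO replicate the change in GPR41 KO also passed (0.0260, 0.0102 and 0.0129). Cyp2f2 lies at chr7:27119955-27133660, 3.68 Mb from Ffar2. Of the GPR43 KO arrays, the one with Ffar2 not low was the nearer to WT for Cyp2f2. Ffar2 was not low in the GPR41 KO arrays either, and these were far from WT for Cyp2f2. Cyp2s1 lies 5.0 Mb from Ffar2 on the same chromosome and did not share that pattern: its 2 GPR43 KO arrays were alike. Whether sequence near the deleted gene plays a part was not tested.

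The remaining P450s did not pass. Cyp3a13, a drug-metabolising P450, had log2 fold changes of -0.26 and -0.36, and Cyp2j6, which makes epoxides of fatty acids, had -0.12 and -0.20. Cyp1a1, Cyp1b1 and Cyp2b10, the classic targets of AhR and CAR, were below the filter, which lay at a signal of about 126, and were not tested. Cyp1a1 gave 48.2 and 46.4 in WT, against 52.7 and 69.1 in GPR41 KO, and 66.3 and 81.4 in GPR43 KO, and Cyp2b10 gave 34.7 and 19.0, 26.2 and 43.5, and 81.0 and 102.4. Cyp1b1 ranged from 9.79 to 127 with the groups overlapping. At such levels a probe set is near the background of the array.

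**Figure D2:**
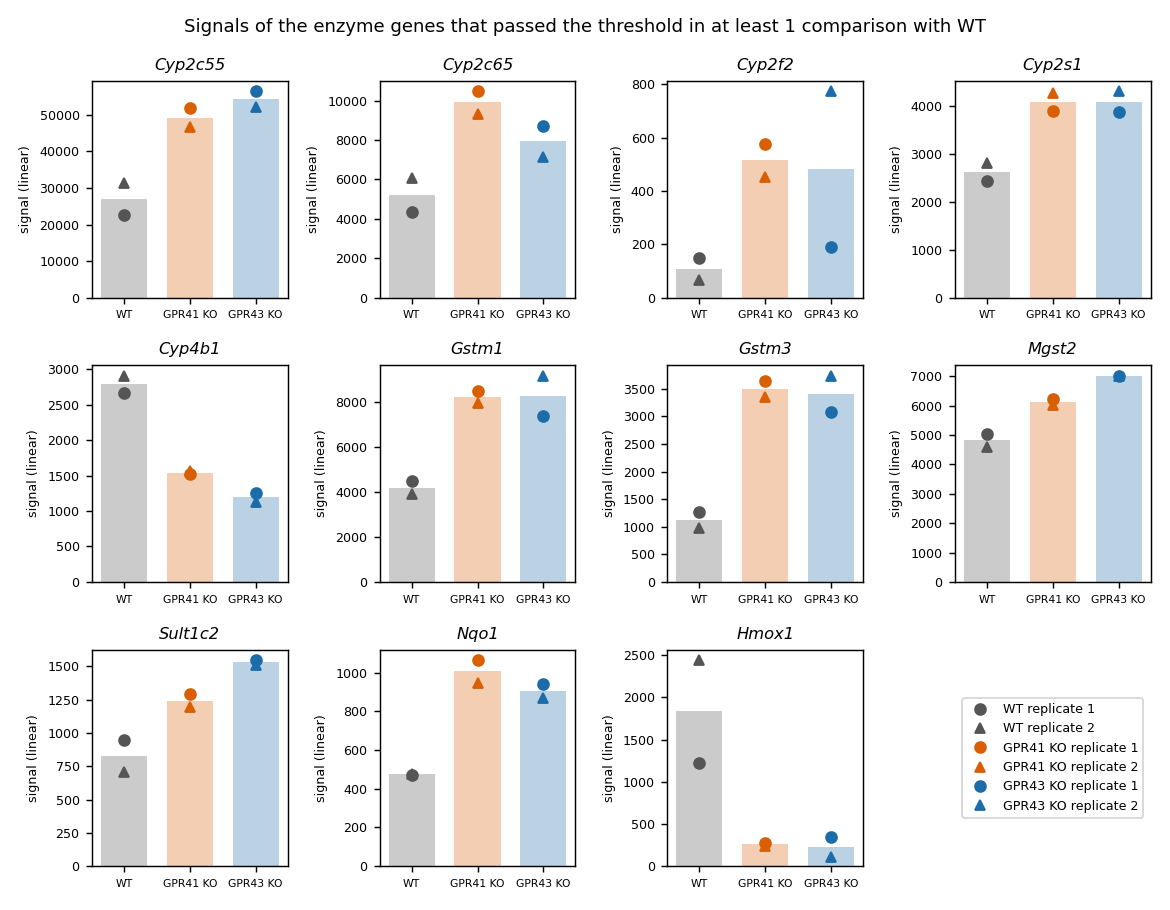
Signal on a linear scale (y axis, from 0) of the 11 genes that passed in at least 1 comparison with WT; points are single arrays and bars are group means of 2 arrays. No WT point overlaps a KO point in any panel, which the choice of passing genes favours. In the Cyp2f2 panel the GPR43 KO points lie far apart, at 189 and 773.

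None of the 8 other phase I genes passed in GPR41 KO or GPR43 KO, nor with the 4 KO arrays together. In limma's fit 3 of the 8 had an unadjusted p under 0.05 in each of these comparisons. Of all 10916 genes tested, 2132 did so in GPR41 KO, 2181 in GPR43 KO and 2475 with the 4 KO arrays together. The 2 with the smallest p in GPR41 KO were Ephx2, the soluble epoxide hydrolase that opens fatty acid epoxides, and Fmo5, a flavin monooxygenase. Ephx2 gave 1120 and 1179 in WT, against 816 and 756 in GPR41 KO, and 788 and 944 in GPR43 KO. All KO arrays were lower, with log2 fold changes of -0.54 ± 0.15 (adjusted p = 0.0823) and -0.41 ± 0.15 (adjusted p = 0.177). Fmo5 gave 431 and 700 in WT, against 1013 and 800 in GPR41 KO, and 907 and 742 in GPR43 KO. It was higher in all KO arrays, and its WT arrays were as far apart as its groups: the changes were 0.69 ± 0.24 (adjusted p = 0.150) and 0.56 ± 0.24 (adjusted p = 0.233), with a pass in GPR41 KO only without WT replicate 2 (0.0388).

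The carboxylesterases, which cleave ester drugs and lipids, went different ways. Ces1g gave 483 and 427 in WT, against 760 and 589 in GPR41 KO, and 851 and 580 in GPR43 KO, with log2 fold changes of 0.54 ± 0.22 (adjusted p = 0.216) and 0.61 ± 0.22 (adjusted p = 0.170). The second was 0.34 (adjusted p = 0.552) with replicate 2 as the only GPR43 KO array. Its neighbour Ces1d, 104.6 kb away on chromosome 8, had -0.27 and -0.37, and Ces2e had 0.14 and -0.06. The microsomal epoxide hydrolase Ephx1 had 0.19 and 0.35, and the flavin monooxygenases Fmo1 and Fmo2 had values between -0.31 and 0.02. For Ces1d and Fmo2 the other probe sets of the gene gave a GPR43 KO difference of the opposite sign.

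All 12 phase II genes were tested, and none fell, while 2 rose in GPR41 KO (16.7%) and 4 rose in GPR43 KO (33.3%). Of all genes tested, 1.85% and 1.55% passed as higher. The clearest were Gstm3 and Gstm1, cytosolic glutathione transferases of the mu class, whose genes lie 43.1 kb apart on chromosome 3 and whose upstream sequences are shown above. Gstm3, at 107963696 to 107969174, gave signals of 1260 and 976 in WT, against 3640 and 3345 in GPR41 KO, and 3084 and 3739 in GPR43 KO. Its mean was 3.12 times the WT mean in GPR41 KO and 3.05 times in GPR43 KO, with the WT pair far below every KO array. The log2 fold changes were 1.64 ± 0.16 (adjusted p = 0.0010) and 1.60 ± 0.16 (adjusted p = 0.0015). With any 1 array left out the adjusted p stayed at or below 0.0131 and 0.0140. Its second probe set gave 395 and 279 in WT and 906 to 1028 in the KO arrays.

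Gstm1, at 108012250 to 108017973, gave 4480 and 3896 in WT, against 8469 and 7932 in GPR41 KO, and 7376 and 9152 in GPR43 KO. It was close to doubled in every KO array: the log2 fold changes were 0.97 ± 0.14 in each (adjusted p = 0.0060 and 0.0081). The call in GPR41 KO was lost without GPR41 KO replicate 1 (0.0604) and the call in GPR43 KO without GPR43 KO replicate 2 (0.0703). All 4 probe sets of Gstm1 were higher in both groups, by 0.65 to 1.11 in GPR41 KO and 0.43 to 1.13 in GPR43 KO. The probe sets used for Gstm1 and Gstm3 carry the maker's marks for probes shared between transcripts, so the mu-class genes may share signal. The other Gstm3 probe set carries no such mark. Nor do the Gstm1 probe sets with changes of 1.11 and 1.13, and of 0.85 and 0.91.

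The rest of the mu cluster was looked at after these values were seen. Gstm2 rose in GPR41 KO (0.87, adjusted p = 0.0333) and was at 0.78 in GPR43 KO (adjusted p = 0.0560). The first call was lost without WT replicate 2 or either GPR41 KO replicate (0.131, 0.124 and 0.168). With the 4 KO arrays combined Gstm2 passed (0.83, adjusted p = 0.0185), lost without WT replicate 2 (0.108) or GPR41 KO replicate 2 (0.0585). Gstm6 also passed there (1.11, adjusted p = 0.0333), lost without WT replicate 2, either GPR41 KO replicate or GPR43 KO replicate 2 (up to 0.191), but in neither knockout alone. Gstm4, Gstm5 and Gstm7 passed in none of the 3 comparisons with WT. The log2 fold changes of Gstm4 to Gstm7 were 0.28 to 0.98 in GPR41 KO and 0.27 to 1.23 in GPR43 KO.

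Sult1c2, a sulfotransferase, gave 944 and 707 in WT, against 1293 and 1195 in GPR41 KO, and 1550 and 1512 in GPR43 KO. The groups did not overlap and GPR43 KO was the higher of the knockouts. It rose in GPR43 KO (0.89 ± 0.16, adjusted p = 0.02), whereas the change of 0.59 ± 0.16 in GPR41 KO did not pass (adjusted p = 0.0782) unless WT replicate 1 was left out (0.0167). The difference between the knockouts was 0.30 ± 0.16 (adjusted p = 0.892). The GPR43 KO call was lost without WT replicate 2 (0.0727), without the library labelled GPR43 KO replicate 1 (0.0985) or without GPR43 KO replicate 2 (0.118).

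Mgst2, a microsomal glutathione transferase that also makes leukotriene C4, gave 5039 and 4600 in WT, against 6228 and 6036 in GPR41 KO, and 7022 and 7010 in GPR43 KO. Its rise was small, at 0.54 ± 0.11 in GPR43 KO (adjusted p = 0.0350), and 0.35 ± 0.11 in GPR41 KO did not pass (adjusted p = 0.130). The GPR43 KO call was kept only when WT replicate 1 was left out, and was lost without WT replicate 2 (0.117), GPR41 KO replicate 1 (0.0722), GPR41 KO replicate 2 (0.0714), or else the library labelled GPR43 KO replicate 1 (0.149) or GPR43 KO replicate 2 (0.190). The call with the 4 KO arrays together (0.44 ± 0.10, adjusted p = 0.0298) was likewise lost with every array but WT replicate 1 left out, with adjusted p up to 0.154.

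Several abundant phase II genes were higher in all 4 KO arrays without passing. How many of all genes were so placed is not given here, so this is description only. Gstp1, the pi-class transferase of epithelia, gave 18555 and 23093 in WT and 27251 to 28254 in the KO arrays, with log2 fold changes of 0.42 ± 0.14 in each (adjusted p = 0.141 and 0.146). It passed in GPR41 KO only without WT replicate 2 (0.0467). Gstt1 had 0.51 and 0.48 (adjusted p = 0.121 and 0.152), Mgst3 0.31 and 0.37, and Gsto1 0.21 and 0.35. On the second probe sets of Mgst3 and Gsto1 the KO arrays overlapped WT. These gave -0.18 and 0.18 for Mgst3, and 0.15 and 0.24 for Gsto1. The other transferases were near 0 or lower: Mgst1 had -0.03 and 0.07, and Gsta4, which conjugates lipid aldehydes such as hydroxynonenal, had -0.40 and -0.15. The sulfotransferases Sult1a1 and Sult1b1 had 0.14 and 0.11, and 0.33 and 0.20.

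**Figure D3:**
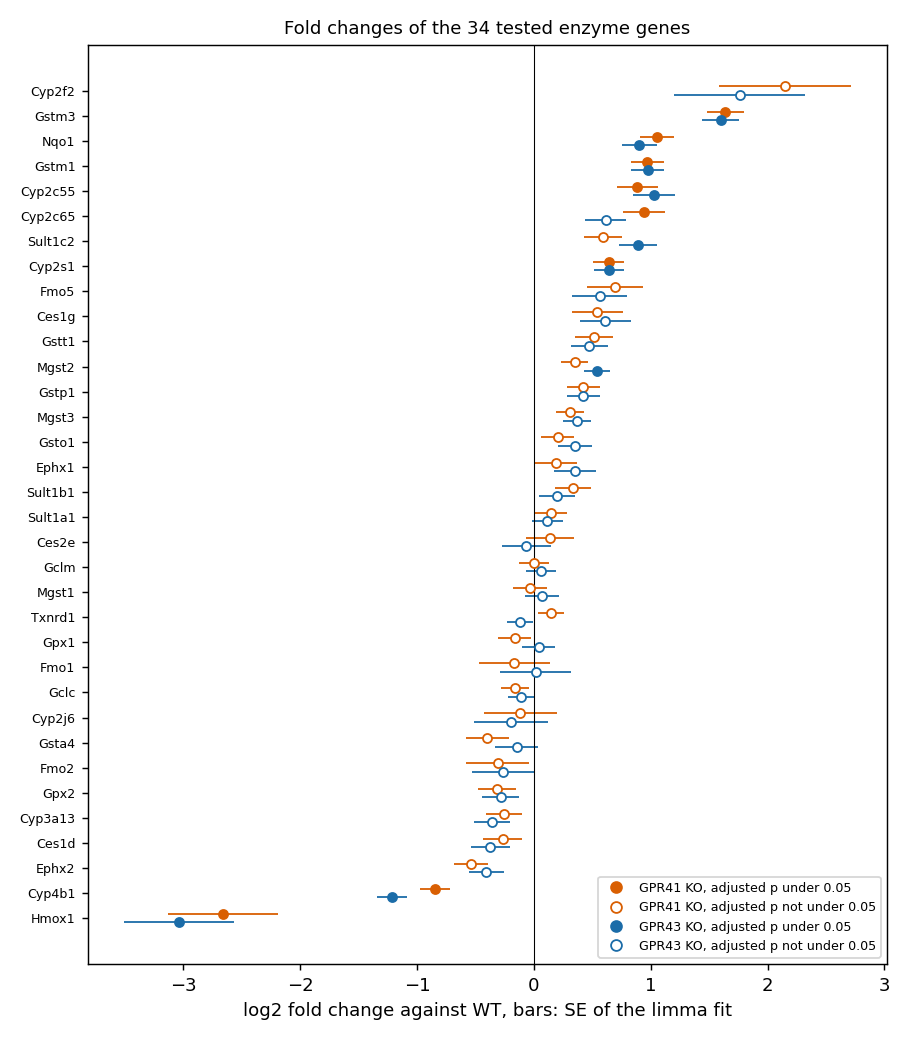
Log2 fold change against WT (x axis) of the 34 tested genes in GPR41 KO and GPR43 KO, with the SE of the limma fit as bars and filled symbols for an adjusted p under 0.05. Gstm3, Nqo1, Gstm1, Cyp2c55 and Cyp2s1 carry filled symbols for both groups on the right, Cyp4b1 and Hmox1 on the left, and Cyp2f2 has the widest bars among the genes on the right.

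Of the 7 antioxidant genes, 1 rose and 1 fell in each knockout (28.6%), where 4.96% and 3.96% of all genes passed. Nqo1, a quinone reductase and textbook NRF2 target at chr8:107388225-107403205, gave 472 and 478 in WT, against 1066 and 947 in GPR41 KO, and 942 and 868 in GPR43 KO. The WT arrays were nearly equal and every KO array was well above them. The log2 fold changes were 1.05 ± 0.15 (adjusted p = 0.0049), lost without GPR41 KO replicate 1 (0.0567), and 0.90 ± 0.15 (adjusted p = 0.0128), lost without the library labelled GPR43 KO replicate 1 (0.0836) or without replicate 2 (0.0703). None of the other 5 antioxidant genes passed in either knockout. Gclc and Gclm, the catalytic and modifier subunits of the enzyme that limits glutathione synthesis, had -0.16 and -0.11, and 0.00 and 0.06. Txnrd1, the thioredoxin reductase, had 0.15 and -0.12. The glutathione peroxidases Gpx1 and Gpx2 had -0.16 and 0.04, and -0.32 and -0.29.

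Hmox1, which breaks down haem to biliverdin, iron and carbon monoxide, moved the other way and further. Its signals were 1228 and 2445 in WT, against 273 and 245 in GPR41 KO, with 349 in the library labelled GPR43 KO replicate 1 but 107 in GPR43 KO replicate 2. The KO arrays held 5.82% to 19.0% of the WT mean, and the pairs within WT and within GPR43 KO differed widely. The log2 fold change came to -2.66 ± 0.47 in GPR41 KO (adjusted p = 0.0141), against -3.03 ± 0.47 in GPR43 KO (adjusted p = 0.0101). The first was lost without WT replicate 2 (0.0554) or either GPR41 KO replicate (0.0817 and 0.0872), and the second was kept in all 6 cases, with adjusted p up to 0.0325.

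Markers of white blood cells moved in the same direction as Hmox1. All 11 tested neutrophil markers of 16 listed fell in both knockouts, but 7 of the 11 had a KO mean below the filter and so were tested only because WT was high. The other 4 were above it in every group. The summed signal of the 14 with a probe set was 94009 and 177870 in WT against 1269 to 3587 in the KO arrays. Of 13 tested macrophage and monocyte markers, 2 of them with a KO mean below the filter, 5 fell in each knockout, and the summed signal was 28988 and 43897 in WT against 14433 to 20927. WT replicate 2 had the higher value of the WT arrays for both sums and for Hmox1. No marker in these lists was listed at 0. In whole colon, fewer cells of a type and less RNA per cell cannot be told apart, and the part of these cells in the fall of Hmox1 was not tested.

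Markers of the epithelium were somewhat higher where the other enzymes were higher. The summed signal of 12 epithelial markers was 228650 and 258100 in WT and 279030 to 316020 in the KO arrays, so its mean was 1.18 times that of WT in GPR41 KO and 1.27 times in GPR43 KO. That of 14 absorptive colonocyte markers was 188810 and 192520 against 253410 to 290330 (1.39 and 1.43 times), and that of 9 goblet cell markers 213300 and 237110 against 272980 to 411410 (1.32 and 1.59 times). Of the single markers, 1 of 12 (8.33%), 2 of 14 (14.3%) and 1 of 9 (11.1%) rose in GPR41 KO, where 1.85% of all genes did. In GPR43 KO 0 of 12, 2 of 14 (14.3%) and 2 of 9 (22.2%) rose, where 1.55% of all genes did. Sums for smooth muscle were 71929 and 80798 in WT against 90485 to 118760, and those for fibroblasts overlapped. The mean sums for endothelium were 0.80 and 1.01 times those of WT, and for adipocytes 0.89 and 0.73 times. Squamous epithelium sums were 1690 and 1995 in WT against 426 to 884. The hepatocyte sum was 1985 and 2149 in WT against 2675 to 3498, but its markers did not rise together. Ttr alone gave 730 and 332 in WT against 1196 to 2457. For GPR41 KO, 1 of the 3 tested hepatocyte markers had a positive log2 fold change (median -0.26). For GPR43 KO, 2 of them did (median 0.10). The sums hide a spread among single markers. Log2 fold changes of the 14 colonocyte markers ran from -0.07 to 2.03 for GPR41 KO (median 0.53), with 13 positive. For GPR43 KO they ran from -0.04 to 1.83 (median 0.48), again with 13 positive. The highest of them, both for Aqp8, exceeded those of Gstm3 (1.64 and 1.60). The means of Gstm3 rose 3.12 and 3.05 times, Gstm1 1.96 and 1.97 times, Nqo1 2.12 and 1.90 times, and Cyp2c55 1.83 and 2.01 times. The part of cell make-up in these rises was not tested.

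**Figure D4:**
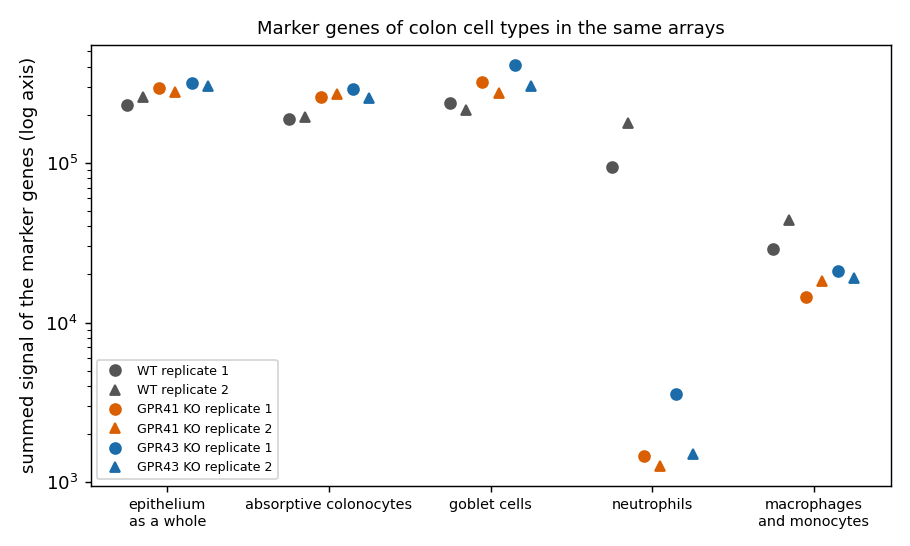
Summed signal (y axis, log scale) of the marker genes of 5 cell types in each of the 6 arrays, 1 point per array. The neutrophil sum separates WT (94009 and 177870) from the KO arrays (1269 to 3587), the macrophage sum does so less, and the epithelial, colonocyte and goblet sums are higher in the KO arrays.

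Between GPR43 KO and GPR41 KO none of the 34 genes passed limma's test, and 0% of all genes passed. At an unadjusted p under 0.05 there were 2 of the 34 (Cyp4b1 and Txnrd1) and 596 of the 10916. The differences ran from -0.39 for Cyp2f2 to 0.30 for Sult1c2, with a median of 0.0030. Of the 34, 29 had the same sign against WT in both knockouts, a count that the shared WT arrays favour. Without the library labelled GPR43 KO replicate 1 the values against WT of further members that did not pass also shifted: Cyp2j6 was then at 0.31, Fmo1 at 0.28, Fmo2 at -0.49, Gsta4 at -0.33, Sult1b1 at 0.29, Mgst1 at 0.12, Sult1a1 at 0.068, Gclm at -0.033, Txnrd1 at -0.18 and Gpx1 at 0.090, none passing. An exact permutation test on 2 arrays against 2 cannot give a p below 0.333.

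Genes around these enzymes were read from 6 further lists, also chosen with earlier results of these data known. Their shares are description only. Over all genes tested, 4.96% passed in GPR41 KO (1.85% higher, 3.11% lower) and 3.96% in GPR43 KO (1.55% higher, 2.41% lower). Of 16 tested regulators and partners of the response, such as the receptors and NRF2 with its inhibitor, none passed in GPR41 KO. In GPR43 KO 1 fell (6.25%): Maff, a small Maf partner of NRF2, at -1.03 (adjusted p = 0.0440). That call was lost without WT replicate 1 or 2 or either GPR43 KO replicate, with adjusted p up to 0.202. Of 40 other NRF2 target and glutathione genes 1 rose in GPR41 KO (2.5%), close to the 1.85% of all genes. This was Me1, the cytosolic malic enzyme (1.15, adjusted p = 0.0188). It was at 0.53 in GPR43 KO, where none of the 40 passed. There 12 of the 40 had an unadjusted p under 0.05 in limma's fit, as did 2181 of all 10916 genes. The call of Me1 in GPR41 KO was lost without GPR41 KO replicate 1 or 2.

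Among 28 other conjugating enzymes 8 rose and none fell in GPR41 KO (28.6%), and 3 rose in GPR43 KO (10.7%). Their medians were 0.43 and 0.41, against 0.00057 and 0.030 over all genes. Sult2b1, a sterol sulfotransferase, rose by 1.47 and 1.18 (adjusted p = 0.0040 and 0.0136), with the second lost without either GPR43 KO replicate (0.0837 and 0.0534). Papss1, which makes the sulfate donor of these enzymes, rose by 0.96 and 0.87 (0.0120 and 0.0228). Ugdh, which makes the donor for glucuronidation, rose by 0.74 and 0.67 (0.0122 and 0.0228). Papss2 rose in GPR41 KO (0.68, 0.0130) and stood at 0.30 in GPR43 KO (0.199). The GPR41 KO calls of Papss1, Ugdh and Papss2 were each lost without GPR41 KO replicate 1 or 2, with adjusted p up to 0.121. The GPR43 KO call of Papss1 was lost without WT replicate 2 or GPR43 KO replicate 2 (up to 0.147), and that of Ugdh with every array but WT replicate 1 left out (up to 0.160).

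Of 25 other P450, esterase and flavin monooxygenase genes 2 rose and 3 fell in GPR41 KO (20%), and 1 rose and 2 fell in GPR43 KO (12%). Ces1f, a carboxylesterase of the same cluster as Ces1d and Ces1g, gave 818 and 826 in WT and 2108 to 3003 in the KO arrays. It rose by 1.68 and 1.5 (adjusted p = 0.00092 and 0.0020), whichever array was left out. Its probe set carries the maker's mark for probes shared by more than one transcript, so related transcripts could add to it. Cyp4f18, which inactivates leukotriene B4 in neutrophils, fell, with log2 fold changes of -2.03 and -1.67 (0.0038 and 0.0120) alongside the neutrophil markers. Both KO means of Cyp4f18 lay below the filter, so it was tested only because WT was high. Its GPR43 KO call was lost without WT replicate 2 (0.0726) or the library labelled GPR43 KO replicate 1 (0.0607). Aadac, an arylacetamide deacetylase, rose in GPR41 KO (0.91, 0.0251) and had 0.77 in GPR43 KO (0.0559). Cyp2d26 fell as well, with -0.68 and -0.77 (0.0491 and 0.0364). The GPR41 KO calls of Aadac and Cyp2d26 were lost without WT replicate 2 or either GPR41 KO replicate (up to 0.200), and the GPR43 KO call of Cyp2d26 without these or GPR43 KO replicate 2 (up to 0.223).

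Of 31 other peroxidases, peroxiredoxins, dismutases and metallothioneins none rose and 3 fell in each knockout (9.68%), where 3.11% and 2.41% of all genes fell. Mt2 and Mt1, the metallothioneins that bind zinc and copper, fell, with log2 fold changes of -2.73 and -1.63 in GPR41 KO (adjusted p = 0.00075 and 0.0120), against -2.21 and -1.33 in GPR43 KO (0.0020 and 0.0345). Mt2 gave 16537 and 30117 in WT against 3139 to 4920 in the KO arrays, and its calls held whichever array was left out. Those of Mt1 were lost without either GPR41 KO replicate in GPR41 KO (up to 0.0826), and in GPR43 KO without any 1 of the 4 KO arrays (up to 0.154). Gpx3, the secreted glutathione peroxidase, fell, with -1.45 and -1.18 (0.0047 and 0.0157), the second lost without either GPR43 KO replicate (0.0555 and 0.114).

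Of 21 transporters that move drugs and conjugates 4 rose in GPR41 KO (19%) and 2 in GPR43 KO (9.52%), and none fell. Of all genes tested, 1.85% and 1.55% rose. Abcb1a, the P-glycoprotein efflux pump, gave 5360 and 5443 in WT and 9169 to 10061 in the KO arrays. It rose by 0.87 and 0.81 (adjusted p = 0.0034 and 0.0066), with the second narrowly lost without the library labelled GPR43 KO replicate 1 (0.0544). Slc22a23 rose by 0.72 and 0.73 (0.0231 and 0.0269). Slc22a18 (0.63, 0.0186) and Abcc3, a pump for conjugates (0.58, 0.0280), rose in GPR41 KO. The calls of these 3 in GPR41 KO were each lost without WT replicate 2 or either GPR41 KO replicate (up to 0.176), and that of Slc22a23 in GPR43 KO with every array but WT replicate 1 left out (up to 0.186).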

How the data were processed

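Total RNA from 6 mouse colon samples was amplified, labelled with biotin and hybridised to 1 Affymetrix mouse genome array per sample, per the labels. The deposited values are a linear intensity per probe set, made by the authors with MAS5, per the submitters' processing notes, in a version not given in the sources used here. The trimmed mean (2% left out at each end) was 500.0 on every array, so the authors had scaled the arrays before deposit, and no further scaling was applied. MAS5 estimates low signals poorly, and array number limits the precision. Of 45101 probe sets, 34958 had 1 gene symbol in the platform annotation, 932 had several and 9211 had none; genes were named from the first kind only.

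The 37 genes, their roles and the further lists were chosen with earlier results of these data known. Signals were tested as log2(signal + 18) with limma 3.58.1 in R 4.3.3 (1 mean per group over all 6 arrays, empirical Bayes with an intensity trend, residual degrees of freedom 3), for 10916 genes with a mean above the 40th percentile. P-values were adjusted over all of these (Benjamini-Hochberg), with 0.05 as threshold. A fold change on this scale understates the change of low genes. All 37 genes could be named, with full values for those past the threshold and, where fewer than 2 of a role passed, the 2 with the smallest p. Of each further list up to 4 passing genes with the smallest p were named; Gstm2, Gstm4 to Gstm7 and Cyp2c68 were added after their values were seen. The fit was tested on simulated data, in 10 draws with 200 of 10916 genes shifted in GPR41 KO. It recovered 43.1% of genes shifted by 1 log2 unit and 89.8% of those shifted by 2. False calls averaged 3 and 7.9 genes. The simulated noise was drawn separately for each gene, so differences shared by many genes of a sample were not modelled. A gene that did not pass may thus still have changed. Alternatives were pseudocounts of 1 and 72, quantile normalization, median centring, no filter, a filter at the 60th percentile, the mean over a gene's probe sets, no trend, the compared groups only, a replicate block, and leaving out each array. Positions and upstream sequences are from RefSeq on GRCm38.p6.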

Additional observations from a re-analysis of the deposited data

Results flagged for a closer look

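Txnrd1, the thioredoxin reductase, was the 1 member whose arrays lay on opposite sides of WT in the 2 knockouts. Its signals were 4803 and 4541 in WT, 5297 and 5049 in GPR41 KO, and 4486 and 4118 in GPR43 KO, with log2 fold changes of 0.15 (adjusted p = 0.541) and -0.12 (adjusted p = 0.616). The difference of GPR43 KO from GPR41 KO was -0.27 ± 0.11 (SE) in limma's fit and did not pass (adjusted p = 0.870). The gene's other 2 probe sets were higher in both groups, by 0.20 and 0.12 in GPR41 KO and by 0.24 and 0.23 in GPR43 KO.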

How the results depend on the processing

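With 2 arrays per group the number of passing members moved most when an array was left out: between 1 and 9 in GPR41 KO, between 3 and 8 in GPR43 KO, and 7 and 12 with the KO arrays together. Without the intensity trend it was 5 for GPR41 KO and 5 for GPR43 KO. The other alternatives gave 7 to 9, 7 to 9, and 9 to 12, and no member passed between the knockouts under any alternative. Same-numbered samples of different groups did not deviate together (correlations of 0.11, -0.27 and -0.05). With 2 arrays per group this cannot settle whether the numbers pair them. With a replicate block 7, 8 and 9 members passed. Cyp2c55 in GPR41 KO (adjusted p = 0.0581 in limma) and Mgst2 in GPR43 KO (0.0809) were among those lost. Median centring moved the median of all genes in GPR41 KO from 0.00057 to 0.095. No member that passed changed direction under any alternative, whereas 34 values of members that did not pass did. Averaging probe sets turned Cyp2j6 in GPR41 KO to 0.13 and, in GPR43 KO, Fmo2 to 0.049, Ces1d to 0.014, Mgst1 to -0.18, Gclm to -0.094 and Txnrd1 to 0.12, since their other probe sets differ. Median centring turned Mgst1 in GPR41 KO to 0.061, and quantile normalization turned Gclm in GPR41 KO to -0.029 and Gpx1 in GPR43 KO to -0.055. With 1 array left out, the values in GPR41 KO ran from -0.27 to 0.038 for Cyp2j6, -0.41 to 0.078 for Fmo1, -0.70 to 0.081 for Fmo2, -0.19 to 0.46 for Ces2e, -0.035 to 0.41 for Ephx1, -0.19 to 0.12 for Mgst1, -0.11 to 0.11 for Gclm and -0.34 to 0.0061 for Gpx1. In GPR43 KO they ran from -0.70 to 0.31 for Cyp2j6, -0.25 to 0.28 for Fmo1, -0.65 to 0.13 for Fmo2, -0.39 to 0.26 for Ces2e, -0.33 to 0.040 for Gsta4, -0.034 to 0.17 for Mgst1, -0.051 to 0.17 for Gclm and -0.13 to 0.21 for Gpx1. The cause was not tested. The same alternatives were run on the named genes of the other lists, a choice made after seeing the data.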
